A study of Homo sapiens with 2 samples.

Results

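The SWI/SNF remodelling complex was described through 10 of its subunit genes among the 27685 genes listed in the deposited data. These genes were picked by name and not by a threshold on measured values, but with earlier results of these data known. They were the ATPases SMARCA4 and SMARCA2, the ARID-domain subunits ARID1A, ARID1B and ARID2, the bromodomain subunit PBRM1, and the core subunits SMARCB1, SMARCC1, SMARCC2 and SMARCD1. All 10 reached the minimum used here, a mean over both libraries of 1 CPM (the count scaled to library size), as did 14012 genes in all. The cells were NCI-H838, an established line of human lung adenocarcinoma. One culture received the plasmid pCDH carrying full-length LINC00472, a long noncoding RNA, and the control culture received empty pCDH. Both were transfected transiently with a lipid reagent, and total RNA was taken after 48 hours. Each group held 1 library, so no difference can be set against a spread between cultures. No p-values are given, and every interval covers counting error only.

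SWI/SNF complexes use the energy of ATP to slide and evict nucleosomes, which opens promoters and enhancers to transcription factors. Each complex holds a single ATPase, either SMARCA4 (BRG1) or SMARCA2 (BRM), on a core built around SMARCC1, SMARCC2 and a SMARCD subunit. The canonical form (cBAF) carries ARID1A or ARID1B, the polybromo form (PBAF) carries ARID2 and PBRM1, and a noncanonical form (ncBAF) carries BRD9 with BICRA or BICRAL and lacks SMARCB1. Several of these genes are recurrently inactivated in tumours, and lung cancer lines are known for loss of SMARCA4 and SMARCA2. Such losses can arise from mutations that leave the transcript in place, and neither mutations nor proteins were measured here.

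The libraries differed in depth and in more than the supplied RNA. The LINC00472 library held 21093055 gene counts and the control library 54823706. LINC00472 itself had 5655 counts against 2563 in the control, or 25.3 and 4.74 FPKM, with a log2 ratio of 2.23 under TMM scaling. Reads assigned to it were thus also present without the insert. A gene is called higher or lower below where its mean was at least 1 CPM, its ratio was at least 2-fold and its 95% counting interval excluded equality. By that rule 16.3% of the 14012 genes were higher in the LINC00472 library and 23.8% were lower, and among 12379 protein-coding genes the shares were 11.4% and 26.2%. Over all genes, log2 ratios had a median of -0.19 under TMM scaling, 0.11 under total counts and 0.21 under upper quartile factors, so members are also given relative to that median. Higher calls made up 40.6% of all calls under TMM, 57.9% under total counts and 63.9% under upper quartile factors. Of 7 epithelial markers 5 were at the minimum, and 3 of these were lower, namely the keratins KRT18 (log2 ratio -2.90), KRT8 (-1.98) and KRT7 (-1.81). EPCAM (-0.19) and CDH1 (0.47) were also at the minimum and did not meet the rule. KRT19 (0 counts with LINC00472 and 44 in the control) and CLDN4 (16 and 30) were under the minimum. The summed FPKM of the list, most of it from KRT18 and KRT8 in both libraries, was 66.0 with LINC00472 and 291 with the empty vector. Of 6 alveolar markers NAPSA (88 and 66 counts, log2 ratio 1.49, called higher) and ABCA3 (517 and 698, 0.66) were at the minimum. NKX2-1, SFTPB and SFTPA1 were at 0 in both libraries (summed FPKM of the list 5.72 and 2.69). Of 7 markers of other cell types CD68 (432 and 1498 counts) and COL1A2 (15 and 68, called lower) were at the minimum, and CD3E was at 0 in both (summed FPKM 10.2 and 14.9). Under the minimum were PTPRC (0 and 32), DCN (0 and 28) and PECAM1 (0 and 6), counted only in the control, and PDGFRB (16 and 60). Of 5 neuroendocrine markers CHGA (0 and 177 counts, called lower) and SYP (40 and 109, not meeting the rule) were at the minimum. The part of these marker differences in the members' ratios was not tested. In RNA from whole cultures, fewer cells with a transcript and less of it per cell cannot be told apart.

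Of the 10 members, 1 was lower in the LINC00472 library, 0 were higher and 9 did not meet the rule. The lower one was SMARCB1, and SMARCC1 lay just short of the boundary on the same side. ARID2 had the highest ratio and crossed the boundary only under some scalings. These counts compare with 16.3% higher and 23.8% lower among all genes, and the members' median log2 ratio of -0.20 lay near that of all genes (-0.19) and of protein-coding genes (-0.31). The members ranged from -2.25 to 0.73. Relative to the median of all genes, SMARCC2 was at 0.38, ARID1A at 0.34 and ARID1B at 0.28. On the same scale PBRM1 was at -0.05, SMARCD1 at -0.44 and SMARCB1 at -2.06, and the remaining members are given below. Against protein-coding genes in the same decile of transcript length, only ARID2 (0.38) and SMARCC2 (0.26) lay above the decile median. The other members lay below it, from ARID1A (-0.20) and ARID1B (-0.26) to SMARCC1 (-1.08) and SMARCB1 (-1.36). In ratios adjusted for transcript properties the members' median was -0.60 and that of all genes -0.32.

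**Figure D1:**
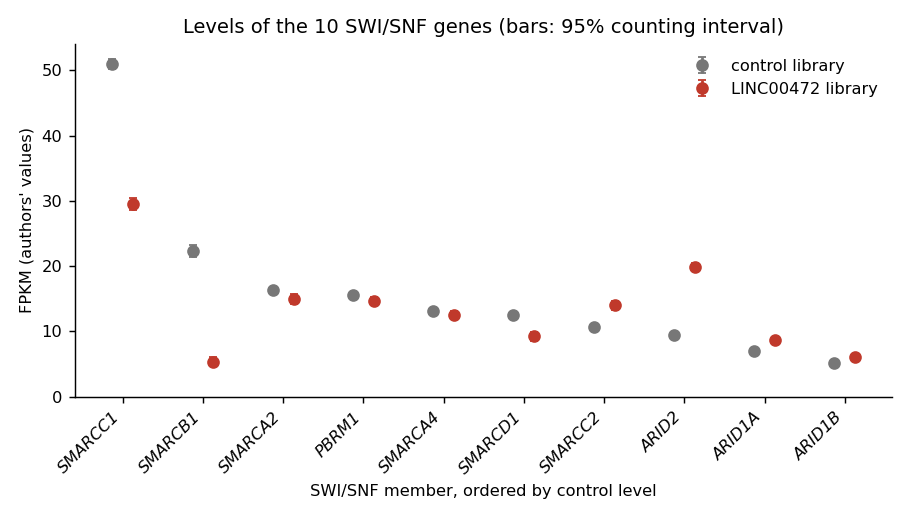
Level of each of the 10 SWI/SNF genes in the control library (grey) and the LINC00472 library (red), as the authors' FPKM on a linear axis, with the 95% counting interval of each value. SMARCB1 is at 22.3 in the control and 5.34 with LINC00472, ARID2 is at 9.44 and 19.9, and SMARCA4, SMARCA2 and PBRM1 have nearly equal values in both.

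The ATPase transcripts were present in both libraries, at like levels by FPKM. SMARCA4 (NCBI gene ID 6597) had 1686 counts with LINC00472 and 4004 with the empty vector, or 12.5 and 13.2 FPKM, the deposited level per length of transcript and depth of library. SMARCA2 (gene ID 6595) had 1740 and 4853 counts, or 14.9 and 16.3 FPKM. Neither gene was near the bottom of the expressed range, since SMARCA4 stood at percentile 61.7 (LINC00472) and 60.9 (control) among the FPKM of genes at the minimum, and SMARCA2 at 67.2 and 66.7. Transcript loss of either ATPase was thus not seen at this depth. The log2 ratio was -0.16 for SMARCA4 (95% counting interval -0.24 to -0.08) and -0.39 for SMARCA2 (-0.47 to -0.31). Relative to the median of all genes these were 0.03 and -0.20. The sign for SMARCA4 turned with the scaling, to 0.13 under total counts and 0.23 under upper quartile factors. In ratios adjusted for transcript properties SMARCA4 was at -0.32, like the median of all genes there (-0.32), and SMARCA2 was at -0.84. SMARCA4 took 45.2% of the pair's counts in the control (exact Clopper-Pearson 95% interval 44.2 to 46.3) and 49.2% in the LINC00472 library (47.5 to 50.9). These intervals do not overlap, and the log2 odds ratio was 0.23 (0.12 to 0.35), which does not depend on the scaling between libraries. Per length the shift was smaller, with SMARCA4 at 44.7% and 45.6% of the summed FPKM. SMARCA4 and SMARCA2 each have 7 RefSeq transcripts in the deposited annotation, and isoforms were not counted separately.

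The ARID subunits, which set the form of the complex, differed in their ratios. ARID1A (gene ID 8289), the cBAF subunit most often mutated in tumours, had 1762 counts with LINC00472 and 3385 with the empty vector (8.73 and 7.06 FPKM). Its paralog ARID1B (gene ID 57492) had 1402 and 2795 counts (6.10 and 5.09 FPKM). Both had small ratios, with log2 values of 0.15 (0.06 to 0.23) and 0.09 (0.00 to 0.19), and the sign turned for both in adjusted ratios (-0.13 and -0.68). The median of all genes in adjusted ratios was -0.32, so ARID1A stayed above it and ARID1B fell below it. ARID1A took 54.8% of the pair's counts in the control (53.5 to 56.0) and 55.7% in the LINC00472 library (53.9 to 57.4). These shares overlap, and the log2 odds ratio of 0.05 (-0.07 to 0.18) bounds a shift between the paralogs in these libraries without showing that there was none.

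ARID2 (gene ID 196528), the DNA-binding subunit that defines PBAF, had the highest ratio of the 10 genes. It had 3451 counts with LINC00472 and 4416 with the empty vector, or 19.9 and 9.44 FPKM. The log2 ratio was 0.73 (0.67 to 0.80), and 0.92 relative to the median of all genes. It reached the 2-fold boundary with total counts (1.02), upper quartile factors (1.12) and FPKM (1.04). It was 0.03 in ratios adjusted for 3 transcript properties, namely length, GC content and the length of introns. The median of all genes in those adjusted ratios was -0.32, so ARID2 stayed above it. PBRM1 (gene ID 55193), the PBAF subunit whose bromodomains read acetylated histones, had 2680 and 6745 counts (14.7 and 15.5 FPKM), with a log2 ratio of -0.24 (-0.31 to -0.18) that ranged from -0.83 to 0.15 over the alternatives. The PBAF subunit with more counts was PBRM1 in the control and ARID2 in the LINC00472 library. ARID2 took 39.6% of their summed counts in the control (38.7 to 40.5) and 56.3% in the LINC00472 library (55.0 to 57.5), a log2 odds ratio of 0.98 (0.88 to 1.07).

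The core scaffold paralogs had ratios on opposite sides of 0. SMARCC1 (BAF155, gene ID 6599) was the most abundant member in both libraries. It had 3997 counts with LINC00472 and 16678 with the empty vector, or 29.5 and 50.9 FPKM. Its log2 ratio was -0.97 (-1.02 to -0.92), so the interval spans the 2-fold boundary, and relative to all genes it was -0.78. With ratios adjusted for transcript properties it was called lower (-1.51). SMARCC2 (BAF170, gene ID 6601) had 1649 and 3066 counts, or 14.004 and 10.6 FPKM, with a log2 ratio of 0.19 (0.11 to 0.28). SMARCC1 took 84.5% of the pair's counts in the control (84.0 to 85.0) and 70.8% in the LINC00472 library (69.6 to 72.0). That was the largest shift of the 4 pairs compared, with a log2 odds ratio of -1.17 (-1.27 to -1.07), and it was of like size per length (82.7% and 67.8% of summed FPKM). Exons of SMARCC2 overlap those of MYL6 on the opposite strand, and MYL6 had 5263 counts against 56067. Whether the counting used strand is not given in the sources used here, so the part of such reads in the SMARCC2 values was not tested.

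**Figure D2:**
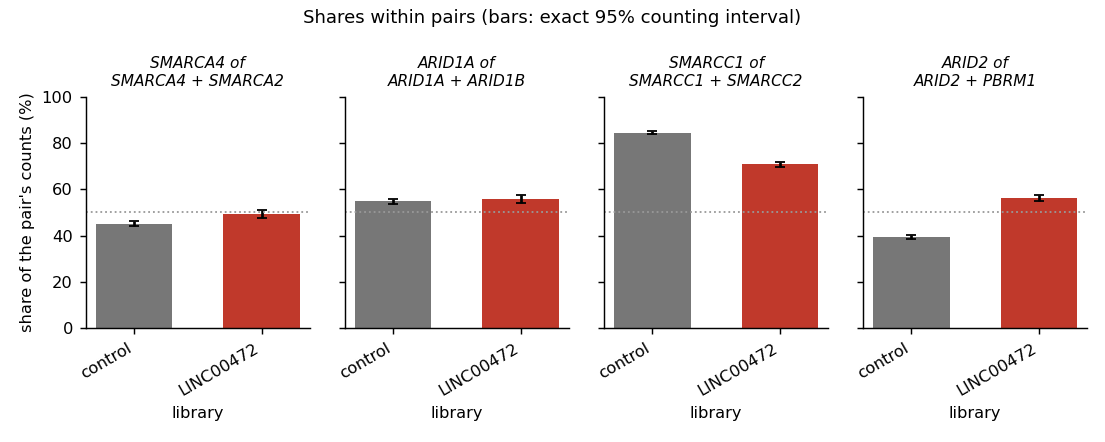
Share of the first gene in the summed counts of 4 pairs of members in each library, with exact 95% counting intervals; the dotted line marks 50%. SMARCC1 is at 84.5% in the control and 70.8% with LINC00472 and ARID2 at 39.6% and 56.3%, whereas ARID1A is at 54.8% and 55.7% and SMARCA4 at 45.2% and 49.2%.

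SMARCB1 (gene ID 6598), the core subunit lost in malignant rhabdoid tumours, was the member that met the rule. It had 217 counts with LINC00472 and 2196 with the empty vector, or 5.34 and 22.3 FPKM, and moved from the second highest to the lowest level of the 10 genes. The ratio was 4.75-fold lower (log2 -2.25, interval -2.46 to -2.05). It was lower under each of the scalings, prior counts, FPKM, adjusted and thinned alternatives tried, with log2 ratios between -2.25 and -1.86. Its transcript is the shortest of the 10, at 1793 nt from the ratio of counts to FPKM, and protein-coding genes in the same length decile had a median log2 ratio of -0.89. Relative to that median SMARCB1 was at -1.36. Exons of SMARCB1 overlap those of DERL3 on the opposite strand, and DERL3 had 26 counts with LINC00472 and 30 with the empty vector. The part of such reads in the SMARCB1 values was not tested.

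SMARCD1 (BAF60A, gene ID 6602), which links the core to transcription factors, had 743 and 2442 counts, or 9.22 and 12.5 FPKM. Its log2 ratio of -0.63 (-0.75 to -0.51) did not meet the rule. The paralogs SMARCD2 (661 and 2802 counts, log2 ratio -0.99) and SMARCD3 (85 and 239, -0.40) had ratios below 0 as well. SMARCD1 took 42.9% of the summed FPKM of the 3 paralogs with LINC00472 and 38.2% without it.

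**Figure D3:**
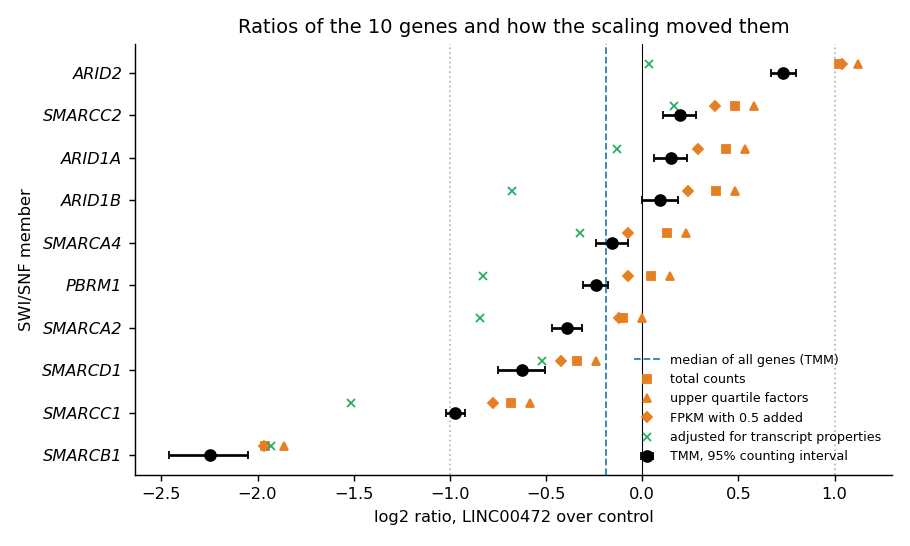
Log2 ratio of LINC00472 over control for the 10 genes with TMM scaling (black, with 95% counting interval) and under 4 alternatives; dotted lines mark 2-fold and the dashed line the median of all genes (-0.19). Total counts and upper quartile factors move all 10 genes together. FPKM with 0.5 added moves them by unlike amounts, such as SMARCA4 from -0.16 to -0.07 and ARID2 from 0.73 to 1.04. The adjustment for transcript properties moves ARID2 from 0.73 to 0.03 and SMARCC1 from -0.97 to -1.51. The median of all genes is -0.32 in adjusted ratios.

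Ordered by FPKM, the control library ran from SMARCC1 (50.9) and SMARCB1 (22.3) through SMARCA2 (16.3), PBRM1 (15.5), SMARCA4 (13.2), SMARCD1 (12.5), SMARCC2 (10.6), ARID2 (9.44) and ARID1A (7.06) to ARID1B (5.09). In that order SMARCA2 and PBRM1, and SMARCA4 and SMARCD1, had overlapping counting intervals. The LINC00472 library ran from SMARCC1 (29.5) and ARID2 (19.9) through SMARCA2 (14.9), PBRM1 (14.7), SMARCC2 (14.004), SMARCA4 (12.5), SMARCD1 (9.22), ARID1A (8.73) and ARID1B (6.10) to SMARCB1 (5.34). There, SMARCA2 with PBRM1, PBRM1 with SMARCC2, SMARCD1 with ARID1A, and ARID1B with SMARCB1 overlapped. Levels spanned 5.09 to 50.9 in the control and 5.34 to 29.5 in the LINC00472 library. FPKM and counts gave different ratios for some members. After the median difference over all genes was removed, the FPKM log2 ratio exceeded the count ratio by 0.16 for ARID2 and 0.08 for SMARCA2 and fell short of it by -0.10 for SMARCA4. The central 90% of genes lay between -0.08 and 0.07.

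The genes that fill one position of the complex in turn can be compared per length. Among the subunits that define a form, ARID1A and ARID1B together had 12.1 FPKM in the control and 14.8 in the LINC00472 library, ARID2 had 9.44 and 19.9, and the ncBAF subunits BICRA and BICRAL had 3.16 and 4.06. As shares of that sum, ARID1A and ARID1B held 49.1% in the control and 38.2% in the LINC00472 library, while ARID2 held 38.1% and 51.3%. By FPKM the larger share was thus that of ARID1A and ARID1B in the control and that of ARID2 in the LINC00472 library. For ARID2 the FPKM ratio exceeded the count ratio by 0.16 after the median difference was removed. Adjusted log2 ratios were 0.03 for ARID2, -0.13 for ARID1A and -0.68 for ARID1B, and shares were not computed from them. The summed ATPase level changed less (29.5 FPKM in the control and 27.5 in the LINC00472 library) than the summed SMARCC level (61.6 and 43.5). These are transcript levels, and the amounts of assembled complexes were not measured.

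Of 20 other SWI/SNF subunits, 17 were at the minimum, 5 were lower and 0 higher, with a median log2 ratio of -0.66. Among all genes 23.8% were lower and 16.3% higher (median -0.19), and among protein-coding genes 26.2% and 11.4% (median -0.31). The lower ones were BCL7B (99 counts against 1218, log2 ratio -2.53), BCL7C (147 against 995, -1.67), ACTL6A (1118 against 7111, -1.58), BCL7A (137 against 655, -1.17) and SMARCE1 (1283 against 5708, -1.06). ACTL6A is an actin-related protein of the module that sits on the ATPase, as are the BCL7 proteins, and SMARCE1 is a core subunit. The other genes of that module at the minimum, SS18 (-0.24) and SS18L1 (-0.37), did not meet the rule. BCL7A and SMARCE1 fell short of the rule with total counts (-0.88 and -0.78), and BCL7C did so with adjusted ratios (-0.83). Of the 12 subunits found in only cBAF, only PBAF or only ncBAF and at the minimum, 0 met the rule in either direction, and their median log2 ratios were 0.09, 0.01 and 0.37, or -0.53, -0.37 and -0.00 in adjusted ratios. The PBAF subunit BRD7 (-0.66) and the ncBAF subunit BRD9 (0.40) lay on opposite sides. ACTL6B, the neuronal paralog of ACTL6A, was at 0 counts in both libraries, and BCL11A and BCL11B were at 0 in the LINC00472 library with 6 and 8 counts in the control.

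Across subunits the ratio ran with transcript length. Of the 27 at the minimum, the 13 shorter ones (up to 3492 nt) held 5 of the 6 lower calls and had a median log2 ratio of -0.82, against -0.20 in the 14 longer ones. Spearman's correlation of the ratio with length was 0.56 over these 27 genes, which share both libraries, and 0.41 over the 12379 protein-coding genes. Adjusted for transcript properties, the medians were -0.76 and -0.48. What part length has in the ratios of single members was not tested. The transcript lengths of the members ranged from the 1793 nt of SMARCB1 to the 10023 nt of ARID1B.

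**Figure D4:**
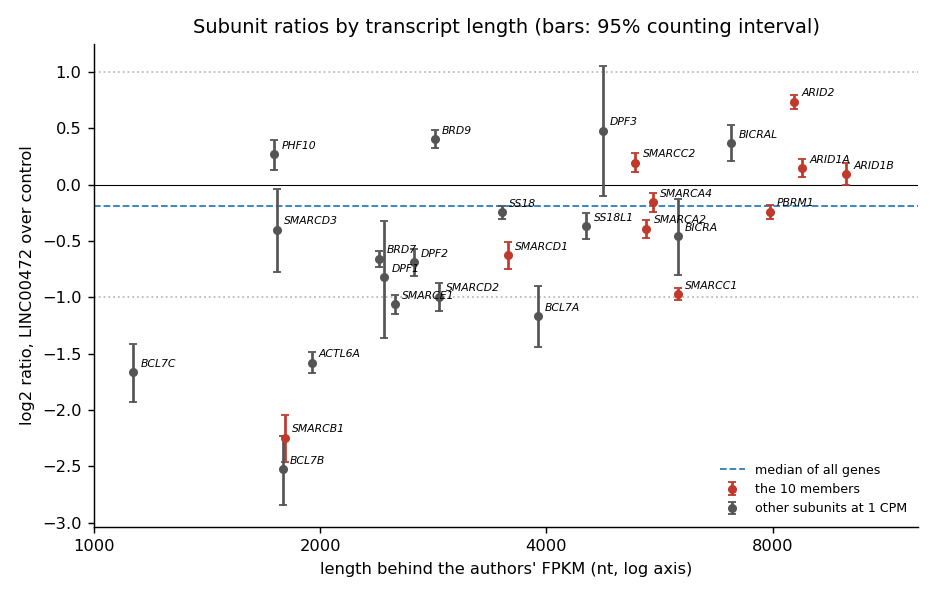
Log2 ratio of LINC00472 over control (with 95% counting interval) against transcript length on a log axis, for the 10 members (red) and 17 other subunits (grey); the dashed line is the median of all genes (-0.19). Subunits up to 3492 nt hold 5 of the 6 lower calls, and PHF10 and BRD9 are short subunits with ratios above 0.

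The other families of remodellers likewise held genes on both sides. Their counts stand beside 16.3% higher and 23.8% lower among all genes (median -0.19). Of 10 ISWI genes at the minimum, 1 was higher and 2 lower (median -0.22), from BAZ2B (1.21) to POLE3 (-2.29), with the ATPases SMARCA1 at -0.04 and SMARCA5 at -0.74. Of 19 CHD and NuRD genes, 2 were higher and 5 lower (median -0.32), from CHD2 (2.46-fold higher) to MBD3 (-1.87), with the NuRD ATPases CHD4 at -0.49 and CHD3 at -0.65. The remaining CHD ATPases were CHD9 (1.09, higher), CHD7 (0.65), CHD6 (0.59), CHD1 (0.47) and CHD8 (-0.09). Of 16 INO80 family genes, 2 were higher and 6 lower (median -0.46), from INO80D (1.41) to ZNHIT1 (-2.30). Its catalytic ATPases were EP400 (1.24), INO80 (-0.03) and SRCAP (-0.14), and the helicase-like ATPases RUVBL1 (-1.59) and RUVBL2 (-1.75) were lower. In adjusted ratios BAZ2B (0.39), CHD2 (0.77), CHD9 (0.25), INO80D (0.51) and EP400 (0.66) no longer met the rule. Nor did RBBP7 (-0.999), YEATS4 (-0.94) and INO80E (-0.78), which were lower before adjustment. With adjustment SMARCA5 (-1.20), BAZ1B (-1.23) and ACTR8 (-1.09) became lower and DMAP1 (1.11) became higher. Among all 97 other remodeller and Polycomb genes at the minimum, RBBP4 (-0.16), SRCAP (-0.14) and MTA3 (-0.12) had the ratios closest to that of SMARCA4, within 0.04. With 2 libraries this likeness rests on a single ratio per gene.

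**Figure D5:**
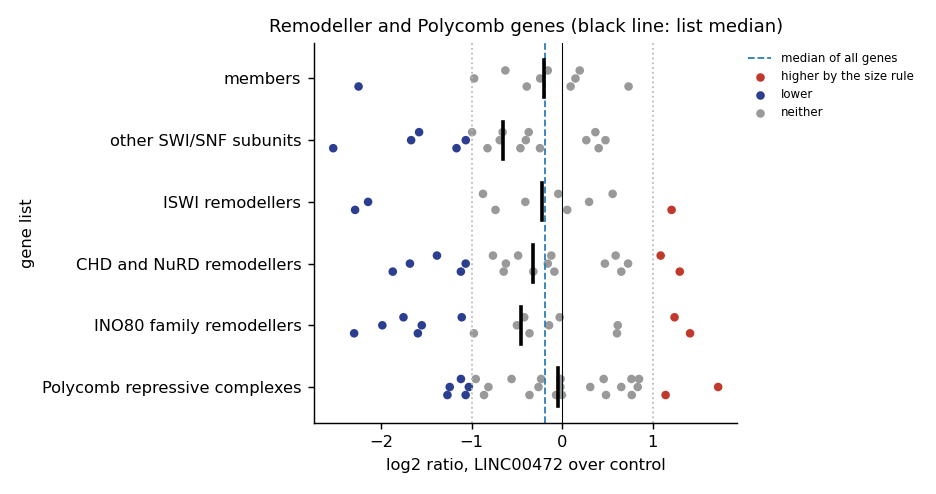
Log2 ratio of each gene at the minimum in 6 lists, coloured by the size rule, with the list median as a black line and the median of all genes (-0.19) dashed. The members span -2.25 to 0.73 with 1 lower call, and the other 5 lists also hold lower calls.

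Polycomb complexes place repressive histone marks that SWI/SNF opposes. Of 26 Polycomb genes, 2 were higher and 5 lower (median -0.04), beside 16.3% and 23.8% of all genes (median -0.19). CBX7 had the highest ratio (1.72). The methyltransferases EZH2 (1992 counts against 2376, log2 ratio 0.83) and EZH1 (2028 against 2538, 0.77) did not meet the rule, and did so with total counts (1.12 and 1.05). With total counts 6 Polycomb genes were higher and 0 lower, beside 3155 higher and 2297 lower among all genes. Among 4 genes reported to need SWI/SNF in tumour lines, CCND1 was lower (1705 counts against 13357, log2 ratio -1.88). CD44 (-0.25), CSF1 (-0.41) and CDH1 (0.47) did not meet the rule. Whether the SMARCB1 ratio bears on any of these genes was not tested.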

How the data were processed

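Total RNA from 2 cultures of NCI-H838 was sequenced, giving 1 library per group, with the group read from each sample's title. Per the file headers, the authors deposited a whole-number read count and an FPKM for each gene. The counts of all 27685 genes were the same in the joint table and in the tables of single libraries. The submitters' processing notes list the aligner HISAT2 2.1.0, StringTie 1.3.4b, Trimmomatic, bcl2fastq 2.20.0 and hg19 but assign them no order. No coordinates are given, since GENCODE 29 describes another build.

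TMM factors from edgeR 4.0.16 (R 4.3.3) were 0.905 for the control and 1.11 for the other library. Log2 ratios took a prior count of 0.5, scaled by depth, and an exact conditional (Clopper-Pearson) interval at 95%. PCR reads without molecular identifiers are not independent molecules, so intervals cover counting error only. Intervals of FPKM rescale the exact Poisson interval of the count. Transcript length was counts over FPKM in the control library. GC content, intron length, gene type and overlapping genes came from GENCODE 29, which covered 97.2% of genes at the minimum. For adjusted ratios, splines (5 knots, degree 3) of these 3 properties were fitted by least squares in scikit-learn 1.9.0 (R squared 0.130) and subtracted. The functions were tested on simulated data. Alternatives were total counts, upper quartile factors, size factors from DESeq2 1.42.0, a prior count of 5, FPKM with 0.5 added (no interval in the rule), adjusted ratios, other minimums, protein-coding genes alone, the control thinned to equal depth and the tables of single libraries.

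Members, gene lists and rules were chosen with earlier results of these data known. All members were named, with each further SWI/SNF subunit that met the rule or was under the minimum, the highest and lowest gene and the ATPases or methyltransferases of each list, and all genes reported to need SWI/SNF. A gene that this rule would name is not reported here. BRD7, BRD9, PHF10, SMARCD2, SMARCD3, SS18, SS18L1, MYL6, DERL3, RUVBL1, RUVBL2, PCGF6, DMAP1, the further CHD ATPases and the cell type markers were named after their values were seen. So were RBBP7, YEATS4, INO80E, BAZ1B and ACTR8. Scripts ran in Python 3.11.15 (scipy 1.17.1, pandas 2.3.3, numpy 2.4.6), and figures were drawn with matplotlib 3.10.9.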

Additional observations from a re-analysis of the deposited data

How the results depend on the processing

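Of the 10 members, 8 stayed on their side of the size rule under every alternative tried. ARID2 was higher with total counts (log2 ratio 1.02), upper quartile factors (1.12) and FPKM (1.04), so that 1 member was higher in each of these, and with adjusted ratios SMARCC1 was lower (-1.51), giving 2 lower members. The members' median minus that of all genes was -0.01 with the main settings, -0.28 with adjusted ratios, 0.11 at 5 CPM, -0.14 with no minimum and 0.11 against protein-coding genes alone. Of other SWI/SNF subunits, 3 were lower with total counts, upper quartile factors or FPKM, against 5. CHD and NuRD genes had 3 lower with total counts or FPKM, 4 higher and 2 lower with upper quartile factors, and 0 higher with adjusted ratios. Polycomb genes had 6 higher and 0 lower with total counts, 7 higher and 0 lower with upper quartile factors, and 3 lower with adjusted ratios. Adjusted ratios also gave 0 higher and 4 lower ISWI genes and 1 higher INO80 gene, DMAP1 (1.11), in place of INO80D and EP400, and 2 ISWI genes were higher with no minimum. As shares of summed FPKM, which weigh counts by length, SMARCA4 held 45.6% in the LINC00472 library, ARID1A 58.9% there and 58.1% in the control, SMARCC1 67.8% and 82.7%, and ARID2 37.8% in the control. With DESeq2 size factors or a prior count of 5 no gene of these lists changed its call, and with the control thinned 1 did, PCGF6 (-0.98), leaving 4 lower Polycomb genes. Scaling shifts every gene alike by construction; the cause of the other changes was not tested. No paired analysis was possible because each group held 1 library. Genes with few counts, such as DPF3, BICRA and BCL7B, have wide intervals.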
